A study of Homo sapiens with 7 samples.

Results

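The genes described here encode the enzymes, membrane proteins, transcription factors and sorting machinery of the lysosome. They were taken by symbol from a deposited table of gene expression in HEK293, a cell line derived from human embryonic kidney and in wide use, keeping loci on chromosomes 1 to 22 and X. The 45 symbols matched 47 gene IDs of the 63655 in the table, because IDS and CLN3 each stand under 2 IDs, and 46 of the 47 were tested by the authors. The cells of all samples carried CNBP with FLAG and HA tags; CNBP is a CCHC zinc finger protein known to contact G-rich RNA and DNA. The labels give 3 samples with a control knockdown and 4 with a CNBP knockdown, and the question was how transcripts change when CNBP is reduced. The table has 2 conditions, which it calls OE and siRNA, and gives 1 value per gene in each. Values are FPKM, a count of fragments corrected for transcript length and for the total mapped. What OE means, and which samples entered each condition, is not stated in the labels. Only the word siRNA and the series design identify that condition as CNBP knockdown. Should OE stand for overexpression of CNBP, a difference would combine both manipulations. No value per sample was given, so no value has an SD or an n, and the spread between samples enters only through the authors' p-values and q-values.

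Lysosomes are acidic compartments that break down sugars, lipids, proteins and glycosaminoglycans. Most of their enzymes are made in the endoplasmic reticulum, receive a mannose 6-phosphate tag in the Golgi apparatus, and are carried onward by receptors for that tag. Loss of a single enzyme lets its substrate build up, which is the basis of the lysosomal storage diseases. TFEB and TFE3 are transcription factors that bind an E-box, known as the CLEAR element, in the promoters of many lysosomal genes.

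That element is shown here because it is the feature through which these genes are known to be regulated as a group. RefSeq promoter windows on GRCh38.p14, each covering 250 bases before and 50 bases from the annotated start, were found for 36 of the 45 symbols; ARSA, ASAH1, CTSB, HEXA, LAMP2, MANBA, NAGLU, PSAP and SGSH had no entry. The letters TCACGTGA, which read the same on both strands, stood in 8 of the 36 windows, or 22.2%, against 1.04% of 27195 promoter windows on the same chromosomes. The core CACGTG, which is part of it, stood in 11 of 36 (30.6%) against 7.45%. Some windows held TCACGTGA more than once, and for each of the 8 the last site that begins before the annotated start is given below, 5' to 3' on the strand of the gene, with TCACGTGA in capitals.
GAA: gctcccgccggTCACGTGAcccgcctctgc
GALNS: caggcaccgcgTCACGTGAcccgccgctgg
CTSA: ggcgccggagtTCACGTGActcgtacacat
LAMP1: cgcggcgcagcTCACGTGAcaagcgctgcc
MCOLN1: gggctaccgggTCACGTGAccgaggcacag
CLN3: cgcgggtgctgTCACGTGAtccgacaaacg
GNPTG: ggtccccgtggTCACGTGAccgtcacttca
IGF2R: ccgggcggctgTCACGTGAcgcggttccgg

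On GRCh38.p14 the enzyme sites lie at chr17:80101538-80101567 on the plus strand (GAA), chr16:88857104-88857133 on the minus strand (GALNS) and chr20:45891298-45891327 on the plus strand (CTSA). The membrane protein sites lie at chr13:113297226-113297255 on the plus strand (LAMP1), chr19:7522598-7522627 on the plus strand (MCOLN1) and chr16:28492058-28492087 on the minus strand (CLN3). The sites of the sorting genes lie at chr16:1351907-1351936 (GNPTG) and chr6:159969042-159969071 (IGF2R), both on the plus strand. A match of letters describes the sequence and does not show that a factor was bound there in these cells.

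None of the 46 tested gene IDs of the list passed the authors' test between the conditions. A gene counts as called where its Cuffdiff q-value, taken from the authors' deposited table, was below 0.05. Calls among the 46 tested lysosomal genes numbered 0 higher and 0 lower in siRNA, against 0.572% and 0.782% of 24822 tested genes (1.35% in either direction). The lowest q-value among them in the authors' deposited table was 0.256, for GLA. Before adjustment, the authors' deposited table gives p-values below 0.05 to 4 of the 46 (8.70%), against 10.9% of all tested genes. Of these, 2 had a higher value in siRNA (GLA and LAMP2), where the background was 4.51%, and 2 a lower one (GAA and ARSA), where it was 6.41%. Each pair is 4.35% of the 46.

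The values were divided evenly between the directions. Of the 46 tested genes, 23 were higher and 23 lower in siRNA, and among tested genes averaging at least 1 FPKM over the conditions the share with a higher value was 50.3%. The median difference, siRNA minus OE on the log2(FPKM + 1) scale, was -0.01 for the lysosomal genes and 0.00 for those 21820 genes. Differences on this scale are understated for genes of low FPKM. Because these are bulk samples, fewer cells expressing a gene and less of its RNA per cell cannot be told apart. Just over 50% of the lysosomal genes were close to their OE value, 24 of 46 lying within 1.2-fold. At least 1.2-fold higher in siRNA lay 10 and at least 1.2-fold lower 12, together 47.8%, against 29.0% and 30.4% of tested genes averaging at least 1 FPKM (59.4% together). At least 1.5-fold higher lay 2 and at least 1.5-fold lower 3, together 10.9%, against 10.8% and 14.2% (25.0% together). Among the coding genes of that background, the share in either direction was 52.1% at 1.2-fold or more and 15.7% at 1.5-fold or more.

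**Figure D1:**
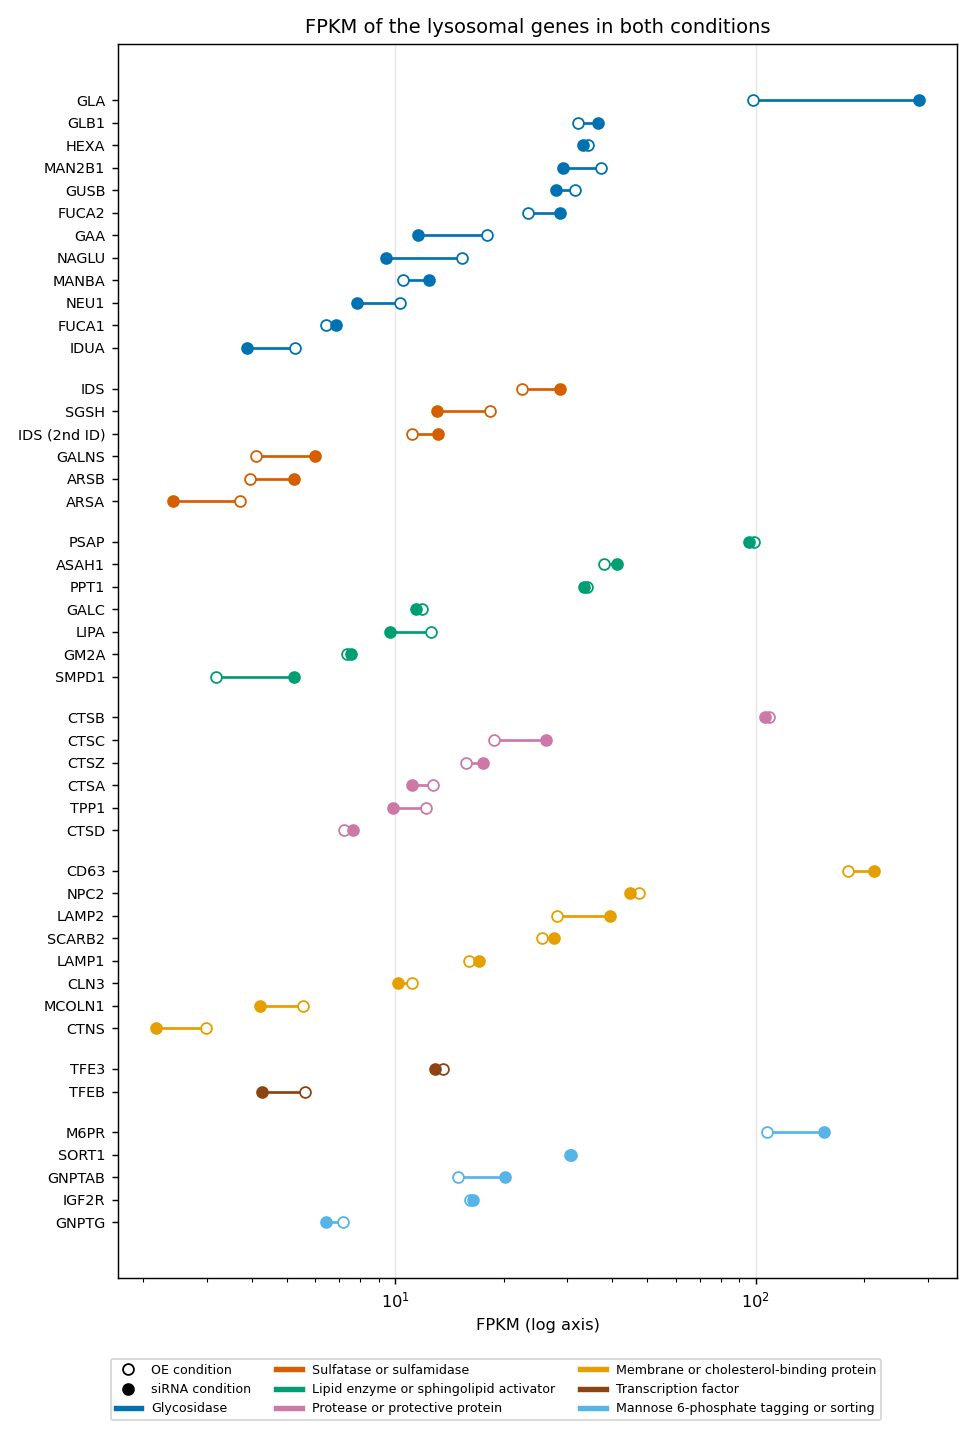
FPKM (log axis) of each of the 46 tested lysosomal genes in the OE condition (open circles) and the siRNA condition (filled circles), grouped and coloured by role and ordered by mean FPKM; each point is 1 pooled value with no error, and "2nd ID" marks the other gene ID named IDS. GLA has the longest line, from 98.5 to 284 FPKM, while SORT1, GM2A, PPT1 and CTSB have nearly coincident points.

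Mean levels ran from 2.58 FPKM (CTNS) to 197 FPKM (CD63). The order began with CD63, GLA, M6PR, CTSB and PSAP, which were the only genes of the list above 50 FPKM in either condition, and ended with SMPD1, ARSA and CTNS. Without a value per sample, neighbours in this order cannot be separated from one another by their spread. The summed FPKM of the 46 genes was 1280.2 in OE and 1547 in siRNA. GLA made up 7.69% of that sum in OE and 18.4% in siRNA, and without GLA the sums were 1182 and 1263. These sums count IDS under both of its IDs. Tested coding genes averaging at least 1 FPKM summed to 506426 in OE and 529496 in siRNA. All tested genes averaging at least 1 FPKM summed to 4.22e+06 in OE and 2.95e+06 in siRNA.

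GLA stood apart from every other gene of the list in the size of its difference, without being called. GLA (ENSG00000102393) encodes alpha-galactosidase A, the enzyme that is deficient in Fabry disease, and was listed at 98.5 FPKM in OE and 284 in siRNA. The siRNA value was 2.89-fold the OE value, or 1.52 on the log2(FPKM + 1) scale, with p = 0.0148 and q = 0.256 in the authors' deposited table. Of all 10457 tested genes averaging at least 10 FPKM, 361 stood at least this far apart in either direction, 187 of them higher in siRNA, and 10 of the 361 were called. Among the 8068 coding genes of that set, 6 stood at least this far apart, GLA among them, and 3 were called. Of those 6, 2 had the higher value in siRNA and neither was called.

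The GLA locus in the table (chromosome X, 100645812 to 100669121, hg19) is a bundle that holds 3 other tested genes, all annotated on the opposite strand in GENCODE 29. RPL36A, a ribosomal protein gene, was listed at 1729 FPKM in OE and 1971 in siRNA, many times the level of GLA. HNRNPH2, which encodes an RNA-binding protein, was at 12.1 FPKM in OE and 10.6 in siRNA. The RPL36A-HNRNPH2 readthrough transcript was at 7.93 FPKM in OE and 4.45 in siRNA. None of these neighbours was called, and none shares annotated exon bases with GLA in GENCODE 29. How reads were assigned within the bundle was not tested, so the size of the GLA difference is uncertain.

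The other glycosidases, which remove sugars from glycolipids, glycoproteins and glycosaminoglycans, were spread over both directions. Including GLA, 5 of the 12 had a higher and 7 a lower value in siRNA, none was called, and the median difference was -0.11 on the log2(FPKM + 1) scale. GAA (chromosome 17, 78075355 to 78093678, hg19), the acid glucosidase that degrades glycogen and is deficient in Pompe disease, was listed at 18.0 FPKM in OE and 11.5 in siRNA. It stood 1.56-fold lower, with p = 0.0198 and q = 0.296 in the authors' deposited table, and is the only gene of its locus. NAGLU, which removes N-acetylglucosamine from heparan sulfate, had the lowest log2(FPKM + 1) difference of the list, -0.64, from 15.3 FPKM in OE to 9.44 FPKM in siRNA. Its p-value in the authors' deposited table was 0.25035, and its locus also holds COASY, a coenzyme A synthesis gene at 60.3 FPKM in OE and 51.6 in siRNA.

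NEU1, the lysosomal sialidase, was at 10.3 FPKM in OE and 7.85 in siRNA. IDUA, the iduronidase deficient in Hurler syndrome, was at 5.25 FPKM in OE and 3.89 in siRNA. In GENCODE 29 IDUA shares 534 exon bases with SLC26A1, an anion transporter gene on the opposite strand, which was listed at 1.18 FPKM in OE and 3.85 in siRNA and was not called. The pair therefore lay on opposite sides of level, and because strand handling in the counting is not given in the sources used here, reads from the shared bases cannot be assigned to one gene or the other. MAN2B1, an alpha-mannosidase, was at 37.1 FPKM in OE and 29.3 in siRNA. GUSB, the beta-glucuronidase that is also used as a reference gene in PCR assays, was at 31.5 FPKM in OE and 28.0 in siRNA.

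HEXA, the hexosaminidase subunit deficient in Tay-Sachs disease, was nearly level at 34.3 FPKM in OE and 33.1 in siRNA. GLB1, the beta-galactosidase whose activity is used as a senescence stain, was at 32.2 FPKM in OE and 36.5 in siRNA. The fucosidase FUCA1 was at 6.44 FPKM in OE and 6.84 in siRNA, and FUCA2 at 23.4 FPKM in OE and 28.7 in siRNA. MANBA, a beta-mannosidase, was at 10.5 FPKM in OE and 12.4 in siRNA. FUCA2 stood 1.23-fold higher, and the others lay within 1.2-fold of their OE value.

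Sulfatases and the sulfamidase SGSH remove sulfate groups from glycosaminoglycans and sulfolipids. Their 6 gene IDs held 4 higher and 2 lower values in siRNA, with a median difference of 0.28 on the log2(FPKM + 1) scale, and none was called. ARSA (chromosome 22, 51061182 to 51066607, hg19), the arylsulfatase deficient in metachromatic leukodystrophy, was listed at 3.70 FPKM in OE and 2.42 in siRNA, with p = 0.03935 and q = 0.405 in the authors' deposited table. ARSB, which acts on dermatan and chondroitin sulfate, lay the other way, at 3.96 FPKM in OE and 5.25 in siRNA. GALNS, deficient in Morquio syndrome, was at 4.12 FPKM in OE and 5.99 in siRNA.

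SGSH, which removes sulfate from heparan sulfate, was at 18.4 FPKM in OE and 13.0 in siRNA. IDS, the iduronate sulfatase deficient in Hunter syndrome, was at 22.5 FPKM in OE and 28.6 in siRNA under its main ID. The other tested ID that the table names IDS, ENSG00000241489, was at 11.1 FPKM in OE and 13.2 in siRNA. It shares 1529 exon bases with IDS on the same strand, so fragments of IDS could be divided between them. Both IDs had a higher value in siRNA.

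Enzymes of lipid breakdown and the activator proteins that present lipids to them were mostly level. Of 7 genes, 3 had a higher and 4 a lower value, 5 lay within 1.2-fold, and the median difference was -0.03 on the log2(FPKM + 1) scale. The exception at the upper end was SMPD1 (chromosome 11, 6411655 to 6416228, hg19), the acid sphingomyelinase deficient in Niemann-Pick disease types A and B, which was listed at 3.19 FPKM in OE and 5.22 in siRNA. Its siRNA value was 1.64-fold the OE value, with p = 0.075 in the authors' deposited table. LIPA, the acid lipase that hydrolyses cholesteryl esters, stood at the lower end at 12.5 FPKM in OE and 9.68 in siRNA.

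PSAP, the precursor of the saposin activator proteins, was the most abundant of this group at 98.9 FPKM in OE and 96.0 in siRNA. GM2A, an activator for ganglioside breakdown, was at 7.37 FPKM in OE and 7.55 in siRNA. ASAH1, the acid ceramidase, was at 38.0 FPKM in OE and 41.2 in siRNA. GALC, the galactosylceramidase deficient in Krabbe disease, was at 11.9 FPKM in OE and 11.4 in siRNA, and PPT1, which removes palmitate from proteins, at 34.1 FPKM in OE and 33.4 in siRNA. All 5 of these genes lay within 1.2-fold of their OE value.

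The proteases and the protective protein CTSA gave 3 higher and 3 lower values with a median difference of 0.02 on the log2(FPKM + 1) scale, and 4 of 6 lay within 1.2-fold. CTSB, a cysteine cathepsin, was the most abundant at 108.7 FPKM in OE and 105.9 in siRNA. CTSC, which activates granule proteases by trimming them, lay farthest from level, at 18.8 FPKM in OE and 26.2 in siRNA, with p = 0.1183 in the authors' deposited table. CTSD, the aspartic cathepsin, was at 7.22 FPKM in OE and 7.65 in siRNA. CTSZ, a carboxypeptidase, was at 15.7 FPKM in OE and 17.5 in siRNA. CTSA, which holds GLB1 and NEU1 in a stable complex, was at 12.8 FPKM in OE and 11.1 in siRNA, and TPP1, a tripeptidyl peptidase, at 12.2 FPKM in OE and 9.88 in siRNA.

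Among the proteins of the lysosomal membrane, grouped here with the soluble cholesterol carrier NPC2, 4 values were higher and 4 lower. LAMP2 (chromosome X, 119561682 to 119603220, hg19), a membrane glycoprotein needed for autophagosome fusion and deficient in Danon disease, was listed at 28.1 FPKM in OE and 39.3 in siRNA. It stood 1.40-fold higher, with p = 0.0349 and q = 0.383 in the authors' deposited table, and is the only gene of its locus. Its relative LAMP1 was nearly level at 16.1 FPKM in OE and 17.0 in siRNA. The difference between LAMP1 and LAMP2 was not tested.

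CD63, a tetraspanin of late endosomes and exosomes, was at 180.2 FPKM in OE and 213.6 in siRNA. SCARB2, which carries glucocerebrosidase to the lysosome, was at 25.5 FPKM in OE and 27.5 in siRNA, and NPC2 at 47.5 FPKM in OE and 44.8 in siRNA. The lower values in siRNA included the channel and transporter genes of this group. MCOLN1, a calcium release channel, was at 5.53 FPKM in OE and 4.22 in siRNA, and CTNS, the cystine exporter, at 2.99 FPKM in OE and 2.17 in siRNA. CLN3, the membrane protein deficient in juvenile Batten disease, was at 11.1 FPKM in OE and 10.2 in siRNA under its main ID. The other ID named CLN3, ENSG00000261832, was listed at 0.0909 FPKM in OE and 0.156 in siRNA and was not tested.

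Both transcription factors of the list had a lower value in siRNA, and neither was called. TFEB was listed at 5.63 FPKM in OE and 4.27 in siRNA, with p = 0.1891 in the authors' deposited table, and TFE3 at 13.5 FPKM in OE and 12.9 in siRNA. Their activity is known to be set mainly by phosphorylation and entry into the nucleus, which these data do not measure. The 8 members with TCACGTGA in the promoter held 3 higher and 5 lower values in siRNA, with a median difference of -0.13 on the log2(FPKM + 1) scale. The 28 members whose window lacks these letters held 16 higher values and had a median of 0.05. GAA and GALNS, whose sites are printed above, lay on opposite sides of level. Over the whole table, 193 genes averaging at least 1 FPKM and holding TCACGTGA in the promoter had a median difference of 0.03, and the 10131 without it also 0.03. In the 8 members with TCACGTGA, transcript GC content, a measure described below, ran from 49.4% (IGF2R) to 64.1% (GAA). All 8 thus lay above the 48.6% median of tested coding genes. The lysosomal genes at or above that GC content, which include these 8, also had a median difference of -0.13. These medians are a description of unequal numbers of genes and carry no test, and promoter letters and base content were not separated.

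The genes that tag enzymes with mannose 6-phosphate and sort them had 4 higher values and 1 lower value, with a median difference of 0.03 on the log2(FPKM + 1) scale, and none was called. M6PR (chromosome 12, 9066492 to 9102551, hg19), the cation-dependent mannose 6-phosphate receptor, was listed at 107.4 FPKM in OE and 154.5 in siRNA. It stood 1.44-fold higher, with p = 0.1678 in the authors' deposited table. It shares 1105 annotated exon bases with PHC1, a Polycomb gene on the opposite strand, which was at 12.4 FPKM in OE and 15.4 in siRNA. The larger receptor IGF2R, which also binds insulin-like growth factor, was level at 16.1 FPKM in OE and 16.5 in siRNA. SORT1, a sorting receptor that does not need the tag, was the gene nearest to level, at 30.4 FPKM in OE and 30.6 in siRNA.

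The phosphotransferase that adds the tag is built from products of GNPTAB and GNPTG. GNPTAB, which encodes its alpha and beta subunits, was at 14.97 FPKM in OE and 20.1 in siRNA. GNPTG, which encodes its gamma subunit, was at 7.18 FPKM in OE and 6.44 in siRNA. The 2 genes thus lay on opposite sides of level, GNPTAB 1.34-fold higher and GNPTG 1.11-fold lower, and neither was called.

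**Figure D2:**
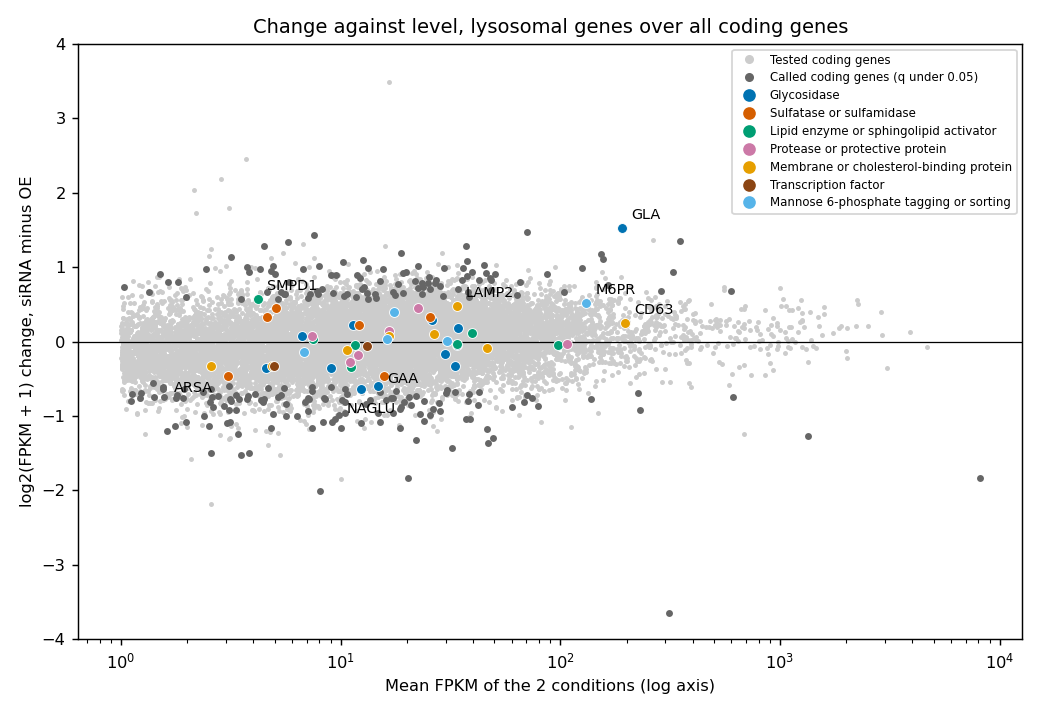
Difference on the log2(FPKM + 1) scale, siRNA minus OE, against the mean FPKM of the 2 conditions (log axis) for tested coding genes (light grey), called coding genes (dark grey) and the 46 tested lysosomal genes (coloured by role). The lysosomal genes lie between -0.64 and 0.57 except GLA at 1.52, and the lowest dark grey point is CNBP at -3.64.

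The data hold other genes of the pathway, which were taken from 5 lists and counted in the same way. Of 17 tested subunits of the V-ATPase, the proton pump that acidifies the lysosome, 13 had a higher and 4 a lower value in siRNA, none was called, and the median difference was 0.15 on the log2(FPKM + 1) scale. The most abundant were ATP6V1F, at 82.1 FPKM in OE and 95.4 in siRNA, and ATP6V0B, at 64.1 FPKM in OE and 72.1 in siRNA. Across tested coding genes averaging at least 1 FPKM, 53.1% had a higher value and the median was 0.03. The median GC content of the V-ATPase genes, a measure described below, was 46.6%, against 48.6% for those coding genes. Of the 6487 coding genes below that 48.6%, 4504 had a higher value, with a median difference of 0.17. Of the 4 lower V-ATPase genes, ATP6V0A1 lay above 48.6% GC and ATP6V1B2, ATP6V1D and ATP6V1H lay below it. The higher genes ATP6V1F, ATP6V0B, ATP6AP1, ATP6V0C, ATP6V0E2 and ATP6V0D1 lay above it, and the other higher ones below it. The part of base content in the V-ATPase values was not tested. No V-ATPase gene reached an unadjusted p-value below 0.05 in the authors' deposited table.

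Of 27 tested hydrolases and cofactors outside the main list, 1 was called lower and none higher, against 0.782% of all tested genes called lower and 0.572% higher. It was HGSNAT, a membrane enzyme that acetylates heparan sulfate and is deficient in Sanfilippo syndrome type C, and it fell from 24.6 FPKM in OE to 12.7 FPKM in siRNA, 1.94-fold, with q = 0.00791 in the authors' deposited table. All 27 together held 12 higher and 15 lower values and a median difference of -0.10 on the log2(FPKM + 1) scale.

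Of 30 tested genes in the list of further membrane proteins and transporters, not all of them residents of the lysosome itself, 14 had a higher and 16 a lower value, and none was called. The most abundant were LAPTM4B, at 61.8 FPKM in OE and 69.6 in siRNA, and TMEM9, at 38.2 FPKM in OE and 57.7 in siRNA with q = 0.145 in the authors' deposited table. Of 21 tested genes of mTORC1 and TFEB regulation on the lysosomal surface, 8 had a higher and 13 a lower value, and none was called. YWHAZ, a 14-3-3 protein, was at 132.4 FPKM in OE and 122 in siRNA, and RHEB, the GTPase that activates mTORC1, at 83.5 FPKM in OE and 93.0 in siRNA. Of 19 tested adaptors and retromer genes that serve the mannose 6-phosphate receptors, 11 had a higher and 8 a lower value, and none was called. SNX5, a sorting nexin, was at 110.8 FPKM in OE and 143.4 in siRNA, and GGA2, an adaptor for the receptors, at 75.1 FPKM in OE and 87.8 in siRNA.

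**Figure D3:**
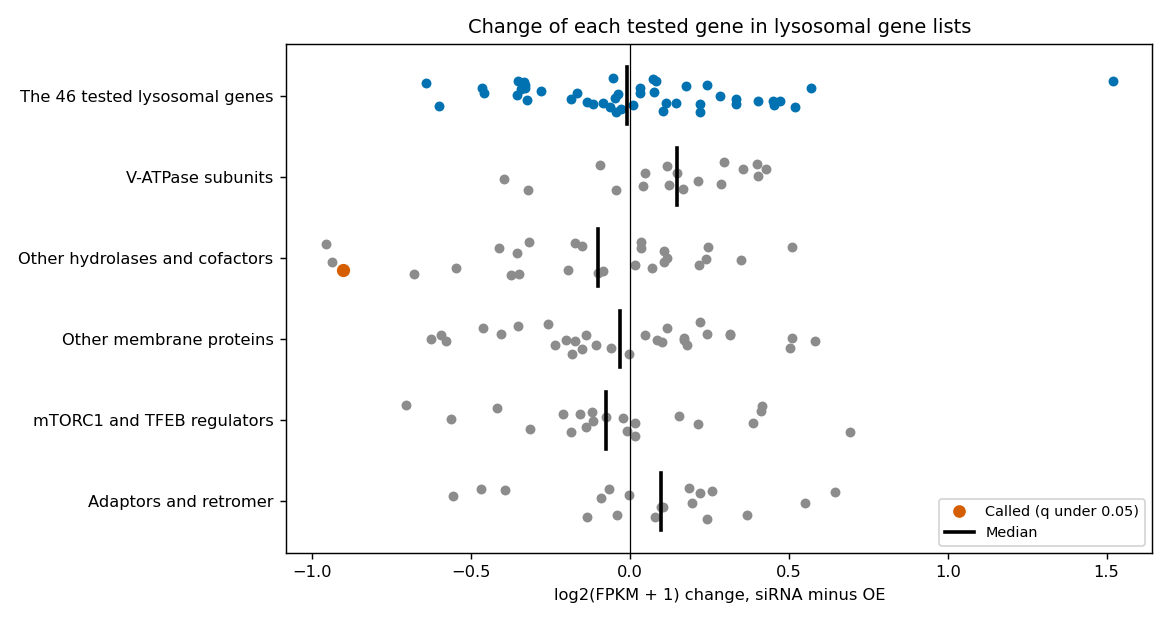
Difference on the log2(FPKM + 1) scale, siRNA minus OE, of each tested gene in the main lysosomal list (blue) and in 5 further lists (grey); black bars mark medians, and vertical scatter within a row has no meaning. The only called gene (orange) is HGSNAT at -0.90, and the medians lie between -0.10 and 0.15.

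The differences of the lysosomal genes went with the base content of their transcripts, as they did across the table. GC content was taken from the longest annotated coding transcript of each gene in GENCODE 29 and was found for all 45 symbols, counting IDS and CLN3 under their main ID. It ran from 37.7% (LAMP2) to 68.3% (IDUA), with a median of 52.8%, against 48.6% for the 12975 tested coding genes averaging at least 1 FPKM. Of the 17 lysosomal genes below that median of coding genes, 13 had a higher value in siRNA and 4 a lower one. Of the 28 at or above it, 9 had a higher value and 19 a lower one. Their median differences were 0.11 and -0.13 on the log2(FPKM + 1) scale, and those of all coding genes below and above the same median were 0.17 and -0.11.

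Spearman's rho between GC content and difference was -0.55 over the 45 lysosomal genes, with Pearson's r of -0.49, and rho was -0.44 over the 12975 coding genes. The points share the same libraries, so these coefficients are a description with no test. LAMP2 had the lowest GC content of the list and a higher value, while GAA at 64.1% and ARSA at 66.0% had lower values. CTSD, at 64.0%, was among the 9 lysosomal genes at or above the coding median with a higher value. LIPA, at 42.8%, was among the 4 below it with a lower value. Relative to the median of coding genes in its GC decile, the difference was 0.20 for LAMP2, -0.38 for GAA and -0.23 for ARSA. GLA, at 49.2% GC, lay 1.5 above its decile median. SMPD1, at 60.2%, lay 0.73 and GALNS, at 59.7%, 0.61 above theirs, the largest such values after GLA. The part of base content in these differences was not tested.

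**Figure D4:**
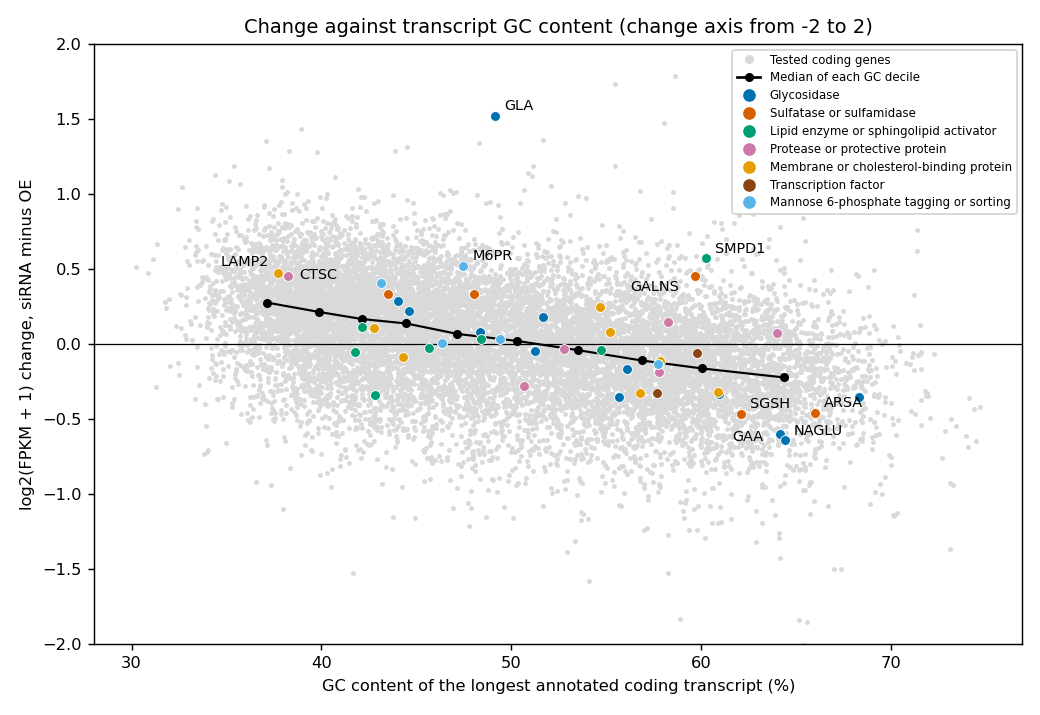
Difference on the log2(FPKM + 1) scale, siRNA minus OE, against the GC content of the longest annotated coding transcript for tested coding genes (grey) and the 45 lysosomal genes (coloured by role); the black line joins the medians of GC deciles, and 7 coding genes lie outside the drawn range of -2 to 2. The black line falls from left to right, most lysosomal genes lie around it, and GLA lies 1.5 above the median of its decile.

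As CNBP is known to bind G-rich sequence, the G-rich word TGGAG was counted on the sense strand of the same transcripts. Its median density was 2.13 per kilobase in the 46 tested lysosomal genes and 2.14 per kilobase in the tested coding genes averaging at least 1 FPKM. It was highest in GAA, at 4.69 per kilobase, and lowest in LAMP2, at 0.248 per kilobase. A count of letters does not show binding, which was not measured in these files.

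Sharing of loci limits many of these values. Of the 46 tested lysosomal genes, 31 lay in a table locus with at least 1 other gene and 15 were alone. Exon bases were shared with another tested gene by 19, in 15 cases with one on the opposite strand. None of the 61 other tested genes in these loci was called. The 15 genes alone in their locus held 9 higher values and a median difference of 0.08 on the log2(FPKM + 1) scale, and the 31 others a median of -0.04.

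CNBP, the targeted gene, was listed at 579.8 FPKM in OE and 45.5 in siRNA and was called lower, at the q-value of 0.00791 in the authors' deposited table that HGSNAT also had. No tested gene had a lower q-value, so genes that share this value cannot be ranked by it. The kidney developmental genes PAX2 and EYA1 were listed at 3.43 to 4.53 FPKM. Of the fibroblast markers, COL1A1 was at 6.60 FPKM in OE and 4.79 in siRNA, above both kidney genes in each condition. DCN was at 4.24 FPKM in OE, between the kidney genes, and at 2.94 in siRNA, below both. The other fibroblast markers lay below both kidney genes in each condition. LUM was at 0.798 FPKM in OE and 0.729 in siRNA. COL1A2, at 0.166 FPKM in OE and 0.0854 in siRNA, and PDGFRB, at 0.0115 FPKM in OE and 0.0568 in siRNA, were not tested. Of the leukocyte markers, CSF1R was at 1.11 FPKM in OE and 1.38 in siRNA, CD68 at 1.08 FPKM in OE and 0.376 in siRNA, CD14 at 0.731 FPKM in OE and 0.489 in siRNA, and PTPRC under 0.13 FPKM in both. Of the keratinocyte markers, TP63 was at 1.18 FPKM in OE and 0.756 in siRNA and KRT5 under 0.13 FPKM in both, as was the hepatocyte gene ALB. Of 7 markers listed for HEK293 cells, NEFM, a neurofilament gene, was not tested, at 0.262 FPKM in OE and 0.277 in siRNA. NEFL, another neurofilament gene of that list, rose from 35.9 FPKM in OE to 64.7 FPKM in siRNA and was called, the authors' deposited table giving q = 0.00791. Of the 16 markers listed for leukocytes, fibroblasts, hepatocytes and keratinocytes, none was above 6.60 FPKM in either condition, and the part of such cells in the results was not tested.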

How the data were processed

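Per the labels' protocols, libraries were directional and made from total RNA. TopHat, Cufflinks and Cuffdiff, with the build hg19, appear in the submitters' processing notes; versions, settings, annotation and strand handling of the counting were not given in the sources used here. The authors deposited 1 FPKM value per gene and condition, with their own Cuffdiff p-value and q-value. No per-sample value or count was used, so depth per sample is unknown and no test across samples was run. Whether samples were separate cultures is not labelled, and the p-values may measure technical spread.

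Genes with status OK (24822) count as tested and those with q below 0.05 as called. Differences were computed from FPKM with a pseudocount of 1. Locus starts, which count from 0, were raised by 1. Patch and haplotype copies (11, all listed at 0) were left out. GENCODE 29, an annotation of a later build joined by gene ID, gave strand, exon overlap and transcript sequence, and RefSeq the promoters. All members are named; from each further list, called genes or else the 2 with the highest mean FPKM; other genes were chosen after their values were seen. Members and lists were chosen with earlier results of these data known. Values of some list genes are not reported here. Functions were tested on simulated data. Python 3.11.15, numpy 2.4.6, pandas 2.3.3, scipy 1.17.1 and matplotlib 3.10.9 were used.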

Additional observations from a re-analysis of the deposited data

How the results depend on the processing

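The lowest Cuffdiff q-value of the lysosomal genes was 0.256 in the authors' deposited table. Thresholds of 0.01 and 0.1 could therefore only give the same count of calls, 0 higher and 0 lower. The count was also the same with the Benjamini-Hochberg adjustment recomputed over all tested genes. It did not change with the adjustment recomputed over genes with a mean of at least 1 or at least 10 FPKM. At an unadjusted p-value under 0.05 it was 2 higher and 2 lower. A pseudocount cannot change which condition has the higher value, so the number with a higher value is 23 with a pseudocount of 0.1 or none. It was also 23 after scaling by the median ratio of the conditions, which was 1.00 and so left the values almost unchanged. The median difference ran from -0.03 to 0.08 on the log2 scale over the alternatives for pseudocount, scaling, filters, shared loci, GLA left out, 1 ID per symbol and centring on GC deciles; the last 2 were chosen after seeing the data. No paired analysis was possible because each condition has a single pooled value, and leaving out a replicate was not possible either. Without a known depth, its effect on the calls cannot be stated.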
